A study of Mus musculus with 5 samples.

Results

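Lung epithelial, endothelial and stromal marker transcripts were followed in sorted group 2 innate lymphoid cells (ILC2s), lymphocytes that are not known as the source of most of them. The set held 35 genes of 22180 measured: 18 of epithelium, 10 of endothelium and 7 of fibroblasts and other stroma. They were chosen by name, with earlier results of these data known, as a check of carry-over. Carry-over is RNA or cells of the surrounding tissue that accompany a sort. Each gene was read at the probe set with 1 gene symbol that had the highest mean over the 5 arrays, and all 35 had such a probe set. The arrays held biotin-labelled total RNA of ILC2s from lungs of naive adult male mice, with 3 biological replicates of wild-type mice and 2 of mice lacking IL-33. The sources used here do not state the knockout allele, strain, exact age, sort gate or animals per replicate, so the spread between replicates may be partly technical. All values are log2 signals, and differences are knockout minus wild type unless stated otherwise.

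The lung is lined by distinct epithelia. Club cells of the conducting airways secrete secretoglobins and detoxifying enzymes, ciliated cells depend on the factor encoded by Foxj1, and alveolar type 2 cells make surfactant while flat type 1 cells carry Ager. Dense capillaries, joined by claudin and cadherin contacts, and collagen-making fibroblasts complete the tissue, and lung ILC2s lie close to vessels and airways within it. Enzymatic dissociation frees transcripts of all these cells. In bulk RNA, a larger number of cells of a type and more RNA per cell cannot be told apart.

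Several facts of the series bear on these values. The Il33 probe set read 3.37, 3.39 and 3.32 in wild type and 3.79 and 3.95 in the arrays labelled IL-33 knockout, higher in both and below the median of every array. Whether it lies in the deleted part of the gene is not stated in the sources used here, so it does not bear out the genotypes, which rest on the labels alone. Array medians ran from 4.29 to 4.33 and lower quartiles from 3.24 to 3.27. The number of arrays limits the precision. ILC2 identity genes, of which 17 of 20 were measured, had a mean of 8.43 to 8.66 on every array, with Il7r at 11.26 to 11.45 and Gata3 at 7.89 to 8.50. Knockout replicate 2, labelled male, read 7.91 for Xist, the transcript of the inactive X chromosome, against 2.35 to 3.10 on the other 4 arrays, while the Y-linked genes diverged. Uty read 7.17 there and 5.83 to 6.96 on the others, Kdm5d 4.79 against 5.57 to 5.63 and Eif2s3y 6.14 against 6.83 to 7.62. The label of that array is therefore in doubt, as the sample could be a mixture or mislabelled, and the differences of the markers that separated the groups are given also without it. Exactly equal values on some arrays occurred for 23 of the 35 markers and for 66.3% of all genes measured, which makes some spreads too small.

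The promoters of 5 markers are shown because these genes carried the patterns described below: Bpifa1, Scgb3a1 and Cbr2 stood apart on knockout replicate 1, and Cldn5 and Flt1 on both knockout arrays. Each run holds the 250 bases before the start of the gene, 5′ to 3′ on its own strand, from RefSeq on GRCm38.p6. Of the 35 markers, 20 had a promoter there, and Scgb1a1, Scgb3a2, Cdh5 and Epas1 were among those without one. The positions are chr2:154142630-154142879 (plus strand) for Bpifa1, chr11:49663345-49663594 (plus) for Scgb3a1, chr11:120732022-120732271 (minus) for Cbr2, chr16:18776597-18776846 (plus) for Cldn5 and chr5:147726012-147726261 (minus) for Flt1. Capitals mark matches to 4 motifs: TGTTTNC (forkhead), CAAGTG (NK2 homeobox) and CGGAAG (ETS), each on both strands, and TATAAA on the given strand.
Bpifa1: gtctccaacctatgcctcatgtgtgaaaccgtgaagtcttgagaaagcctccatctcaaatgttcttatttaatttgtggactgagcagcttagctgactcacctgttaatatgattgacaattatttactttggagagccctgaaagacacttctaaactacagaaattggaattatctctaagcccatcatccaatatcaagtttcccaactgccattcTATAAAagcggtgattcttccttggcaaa
Scgb3a1: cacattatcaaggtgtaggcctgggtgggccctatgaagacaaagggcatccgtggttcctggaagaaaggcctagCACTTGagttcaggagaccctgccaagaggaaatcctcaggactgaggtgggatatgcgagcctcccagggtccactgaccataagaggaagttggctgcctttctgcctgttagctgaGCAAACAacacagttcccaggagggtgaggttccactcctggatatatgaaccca
Cbr2: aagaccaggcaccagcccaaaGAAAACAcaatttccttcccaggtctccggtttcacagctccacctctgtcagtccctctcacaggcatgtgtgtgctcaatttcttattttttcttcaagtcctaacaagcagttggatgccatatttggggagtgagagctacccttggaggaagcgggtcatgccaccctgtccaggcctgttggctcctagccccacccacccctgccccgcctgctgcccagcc
Cldn5: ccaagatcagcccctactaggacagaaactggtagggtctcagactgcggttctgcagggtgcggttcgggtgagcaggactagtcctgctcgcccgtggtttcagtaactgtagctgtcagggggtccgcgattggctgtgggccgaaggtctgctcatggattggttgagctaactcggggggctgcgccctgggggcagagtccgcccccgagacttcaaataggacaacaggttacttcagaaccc
Flt1: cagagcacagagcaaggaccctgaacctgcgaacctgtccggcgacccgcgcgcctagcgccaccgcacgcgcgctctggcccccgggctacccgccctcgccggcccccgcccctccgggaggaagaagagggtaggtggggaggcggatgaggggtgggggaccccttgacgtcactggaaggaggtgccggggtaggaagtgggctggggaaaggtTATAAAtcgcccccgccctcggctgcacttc

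Bpifa1 and Flt1 each held 1 TATAAA, starting 29 and 31 bases before the start of the gene. That motif was found in 7.59% of 32851 promoters of that length and in 4 of the 20 of the markers. Scgb3a1 held 1 forkhead match at 55 and 1 NK2 match at 174 bases, and Cbr2 held 1 forkhead match at 229 bases. None of the 4 motifs was matched in Cldn5. Forkhead matches occurred in 17.8%, NK2 matches in 11.6% and ETS matches in 13.6% of all promoters, and in 5, 5 and 1 of the 20 of the markers, respectively. A match is a description of these letters only.

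No marker passed the test between genotypes. Of the 35, 27 were tested, since the dimmest 25% of genes by mean signal were not fitted, and 0 passed a limma adjusted p of 0.05. Over all 16635 genes tested the share was also 0%, with 1271 genes (7.64%) at an unadjusted p below 0.05, among them 8 of the 27 markers. The lowest adjusted p of a marker was 0.466 in limma, for Cldn5. Krt19, Scgb3a2, Foxj1, Tek, Emcn, Dcn, Lum and Pdgfra were left out as dim and have values only. Of all 35, 28 were above and 7 below 0 in difference, where 59.1% of all genes measured were above, with a median of 0.14 against 0.04 for all genes tested. Both knockout arrays lay above every wild-type array for 11 markers, 31.4%, where this held for 11.0% of all genes measured. They lay below every wild-type array for 1 marker, Kdr, where this held for 5.63%. The balance depended on the scaling: 12 markers were higher and 4 lower without overlap after quantile normalization, against 11.9% and 15.3% of all genes. After median centring 10 were higher and 5 lower, against 8.07% and 24.1%, and Cdh1, Col3a1 and Dcn were among the lower ones under both.

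**Figure D1:**
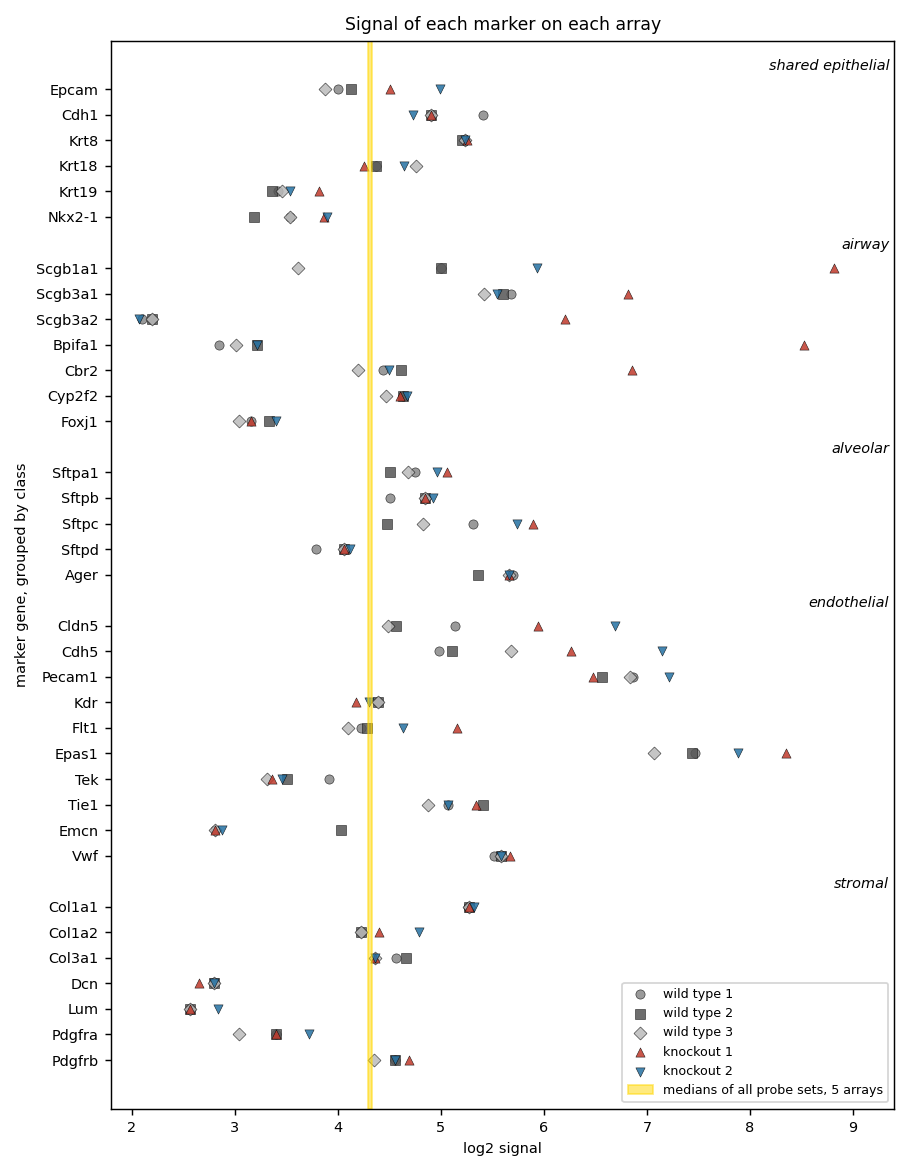
Log2 signal (horizontal) of the 35 markers (vertical, by class) on each of the 5 arrays, with the range of the array medians over all probe sets as a band. Of the airway genes, 5 had a point of knockout replicate 1 far to the right, and Cldn5, Cdh5, Flt1 and Epas1 had both knockout points to the right of all wild-type points.

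The airway secretory genes set knockout replicate 1 apart from the other 4 arrays. Bpifa1, which encodes a secreted defence protein of the upper airway epithelium (probe set 17378125), read 2.85, 3.22 and 3.01 in wild type, 8.52 in knockout replicate 1 and 3.22 in replicate 2. The last value equalled the highest of wild type, so the groups overlapped and the whole difference lay on a single array. Scgb1a1, the club cell secretoglobin (probe set 17362539), read 5.01, 5.01 and 3.62 in wild type, then 8.81 and 5.93 in the knockout arrays. Here both knockout arrays were above all of wild type, while the wild-type arrays themselves spanned 1.39 log2 units.

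Scgb3a2, a secretoglobin of club cells, lay near the lowest signals of the arrays at 2.10, 2.20 and 2.20 in wild type and at 2.07 in knockout replicate 2, but read 6.21 in replicate 1. Cbr2, a carbonyl reductase abundant in club cells, read 4.43, 4.62 and 4.20 in wild type, 6.86 in knockout replicate 1 and 4.50 in replicate 2. Scgb3a1, a further airway secretoglobin, read 5.68, 5.60 and 5.42 in wild type and 6.82 and 5.54 in the knockout arrays. Replicate 2 lay inside the wild-type range for Cbr2 and Scgb3a1 and just below it for Scgb3a2. Foxj1, the ciliated cell factor, had no such pattern, at 3.04 to 3.33 in wild type and 3.16 and 3.40 in knockout.

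The markers were chosen with earlier results of these data known, so the ranks and counts that follow are no independent check. By the size of the gap between knockout replicate 1 and the highest wild-type array, Bpifa1 ranked 1, Scgb3a2 2, Scgb1a1 3 and Cbr2 8 of all 22180 genes. Their gaps were 5.30, 4.01, 3.81 and 2.24. Scgb3a1 ranked 91, with a gap of 1.14. Gaps of at least 1 log2 unit on that array occurred for 5 of the 7 airway markers and for 136 genes, 0.613% of all. The same held for 0 airway markers on knockout replicate 2, where 242 genes, 1.09% of all, had such a gap. Without replicate 2, Bpifa1 differed by 5.49 (SE 0.19) with a limma adjusted p of 0.0334, and it was the only marker of the 35 among the 389 genes called, 2.34% of those tested. That fit assumes that the lone knockout array varies like the wild-type arrays. Bpifa1 also passed the filter on dim genes only through knockout replicate 1, at a mean of 4.16 over all arrays. Its wild-type mean was 3.02 and its value in knockout replicate 2 was 3.22, while Krt19 was left out at 3.52. The call of Bpifa1 in that fit is therefore not independent of the value tested. The differences there were 4.27 for Scgb1a1, 2.44 for Cbr2 and 1.25 for Scgb3a1, at limma adjusted p values of 0.189, 0.0711 and 0.0912.

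With both knockout arrays, the differences were 2.84 (SE 1.74) for Bpifa1 and 2.83 (SE 1.08) for Scgb1a1, each with a limma adjusted p of 0.62. The standard deviation between the 2 knockout arrays was 3.75 for Bpifa1 against 0.18 among the 3 wild-type arrays. Over the 7 airway genes, the mean signal of the wild-type arrays was 3.71 to 4.08, that of knockout replicate 1 was 6.42 and that of replicate 2 was 4.19.

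Cyp2f2, a cytochrome P450 of club cells, depended on the probe set. The brighter one read 4.47 to 4.63 in wild type and 4.60 and 4.67 in knockout. The dimmer one read 3.97, 3.61 and 3.97 in wild type, 4.90 in knockout replicate 1 and 3.97 in replicate 2. Averaging the probe sets moved its difference from 0.06 to 0.32, and then both knockout arrays lay above every wild-type array.

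Further airway genes, from a list of 25 of which 24 were measured, showed less of this pattern. On knockout replicate 1, 1 of the 24 had a gap of at least 1: Reg3g, an antimicrobial lectin gene, at 3.06, 2.26 and 3.06 in wild type, 4.41 in knockout replicate 1 and 3.06 in replicate 2. Both knockout arrays were above wild type for 5 of 24, against 11.0% of all genes, including the mucin gene Muc5b at 4.55 and 4.56 against 4.04 to 4.22 and the factor gene Foxa1 at 3.94 in both against 3.57 to 3.79. On replicate 2, 1 of the 24 also had such a gap: Cyp4b1, a cytochrome P450 gene, at 6.28 against 4.58 to 5.05 on the other 4 arrays. Replicate 1 lay above every wild-type array for 8 of the 24 and replicate 2 for 12. The list's median difference was 0.14 and none passed.

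Most neutrophil markers also lay higher on knockout replicate 1. Of 10 measured, 8 were there above every wild-type array, where 28.4% of all genes were, and 0 on replicate 2. Their list mean ranged from 3.55 to 4.04 over the wild-type arrays and was 4.26 on knockout replicate 1 but 3.76 on replicate 2. Ngp, a neutrophil granule gene, read 5.40 against 3.74 to 3.83 on the other 4 arrays. The other two did not share this: Retnlg read 5.36 on wild type replicate 2 against 3.13 on both knockout arrays, and Mmp8 was lowest on knockout replicate 1, at 3.38. Their part in the airway result was not tested.

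**Figure D2:**
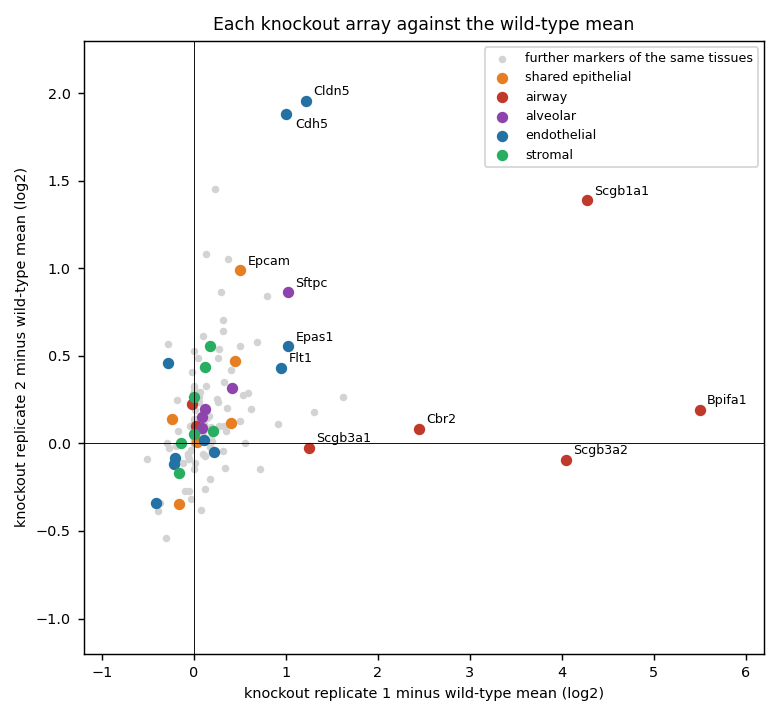
Difference of knockout replicate 1 (horizontal) and knockout replicate 2 (vertical) from the wild-type mean, in log2 units, for the 35 markers by class and for further markers of the same tissues in grey; both axes share the wild-type arrays. Bpifa1, Scgb3a2, Cbr2 and Scgb3a1 lie along the horizontal axis, and Cldn5 and Cdh5 are higher on both.

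Among endothelial markers, 4 of 10 were higher in both knockout arrays than in all of wild type and 1 was lower, where 11.0% and 5.63% of all genes measured were. Cldn5, the claudin of endothelial tight junctions (probe set 17323755), read 5.13, 4.57 and 4.48 in wild type and 5.95 and 6.68 in knockout, a difference of 1.59 (SE 0.34) or 3.00-fold. Cdh5, which encodes VE-cadherin of endothelial adherens junctions (probe set 17504399), read 4.98, 5.11 and 5.68 in wild type and 6.26 and 7.14 in knockout, a difference of 1.44 (SE 0.38) or 2.72-fold. Replicate 2 was the higher knockout array for both junction genes, whereas replicate 1 was for 5 of the 7 airway genes. With limma the adjusted p was 0.466 for Cldn5 and 0.541 for Cdh5.

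Epas1, which encodes the hypoxia-inducible factor HIF-2alpha, read 7.47, 7.43 and 7.07 in wild type and 8.35 and 7.88 in knockout, a difference of 0.79 (SE 0.21). Flt1, the receptor VEGFR1, read 4.23, 4.28 and 4.10 in wild type and 5.15 and 4.63 in knockout, a difference of 0.69 (SE 0.18). Replicate 1 was the higher array for this pair. The limma adjusted p was 0.541 for Epas1 and 0.541 for Flt1. Without knockout replicate 2 the differences were 1.22 for Cldn5, 1.0 for Cdh5, 1.02 for Epas1 and 0.95 for Flt1, and without replicate 1 they were 1.96, 1.88, 0.56 and 0.43, with none of the 4 past the threshold in either case. These 4 genes kept the direction and the separation of the groups after quantile normalization and after median centring. Averaging probe sets could not change them, since each had a single probe set.

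The other 6 endothelial markers were not higher without overlap, except Vwf after quantile normalization. Pecam1, an adhesion molecule also found on many leukocytes, read 6.86, 6.57 and 6.84 in wild type and 6.48 and 7.21 in knockout, so that wild type lay between the knockout arrays. Pecam1 and Epas1 lay above the upper quartile of every wild-type array, which was 5.64 to 5.73. Kdr, the receptor VEGFR2 and a defining endothelial gene, read 4.39 on all 3 wild-type arrays and 4.18 and 4.30 in knockout. With equal values in wild type, its small separation rests on a spread of 0, and without replicate 2 its difference was -0.21. The angiopoietin receptor genes Tek and Tie1 differed by -0.17 and 0.09, the sialomucin gene Emcn by -0.37 and Vwf, the von Willebrand factor gene, by 0.07, all with overlap. Emcn was highest on wild type replicate 2, at 4.03 against 2.81 to 2.88 on the other 4 arrays.

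The endothelial median difference was 0.09, and the list mean was 5.35 and 5.48 in knockout against 4.91 to 5.09 in wild type. Without knockout replicate 2, 5 of 10 lay above every wild-type array, and without replicate 1 also 5, against 28.4% and 31.0% of all genes. Of 25 further endothelial genes measured among 26 listed, 5 (20.0%) were higher in both knockout arrays, against 11.0% of all genes, and 1 lower, with a median of 0.14. They included Lyve1, a hyaluronan receptor of lymphatic endothelium, at 6.70 and 6.75 against 5.43 to 6.18. Its difference was 0.82, or 0.80 on knockout replicate 1 alone, with a limma adjusted p of 0.616. The lower gene, Calcrl, read 7.05, 7.08 and 7.79 in wild type and 7.03 and 5.74 in knockout, a difference of -0.92. Of the 25, 19 had differences above 0 and 6 below.

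**Figure D3:**
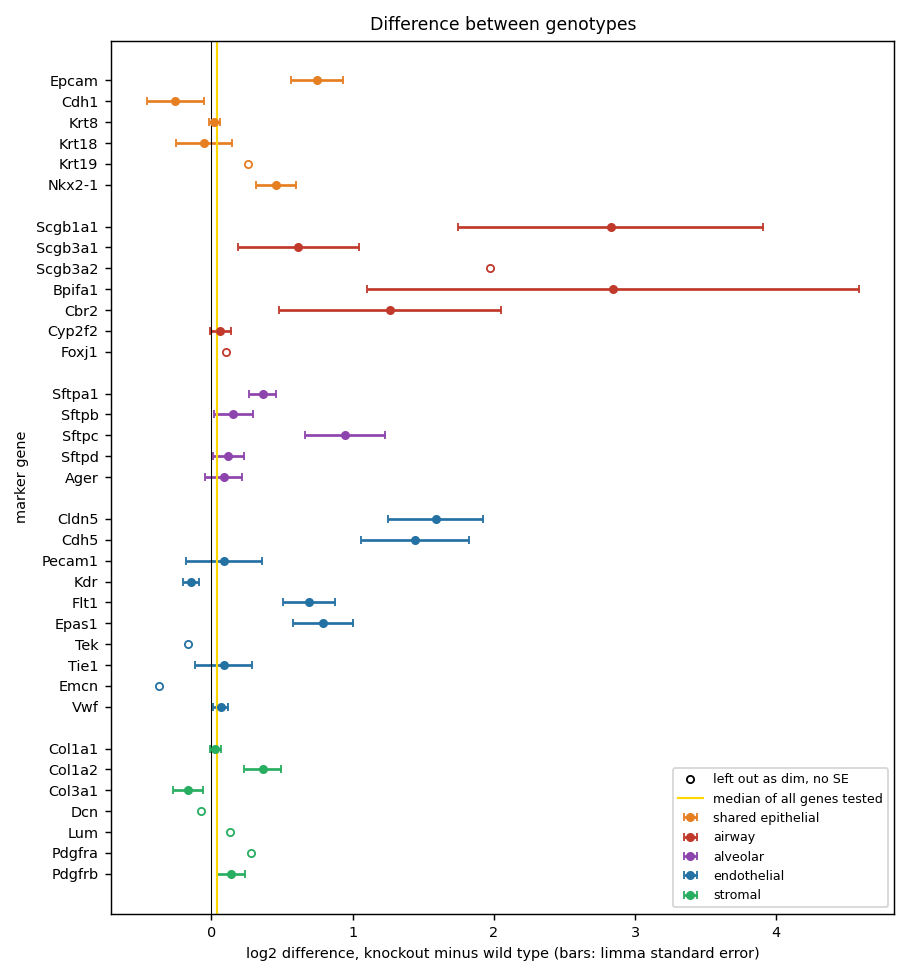
Log2 difference, knockout minus wild type (horizontal), of the 35 markers with the standard error of limma as bars; open points were left out of the test as dim and have no error. The widest bars belong to Bpifa1 and Scgb1a1, whose knockout arrays read far apart.

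All 5 alveolar markers had differences above 0, with a median of 0.15. Sftpc, the surfactant protein C gene of type 2 cells (probe set 17308388), read 5.31, 4.47 and 4.83 in wild type and 5.90 and 5.74 in knockout, a difference of 0.94 (SE 0.28) with a limma adjusted p of 0.566. Sftpa1, of surfactant protein A, read 4.75, 4.51 and 4.68 in wild type and 5.05 and 4.96 in knockout, a difference of 0.36 (SE 0.09) with a limma adjusted p of 0.531. Both genes, 2 of the 5 alveolar markers, were higher without overlap, where 11.0% of all genes measured were. The gaps between the nearest arrays were 0.42 and 0.21. Without replicate 2 the differences were 1.02 and 0.41. Sftpb and Sftpd, of surfactant proteins B and D, differed by 0.15 and 0.12. Replicate 1 equalled the highest wild-type arrays for both, and replicate 2 exceeded them by 0.08 and 0.06. Ager, the type 1 cell receptor, read 5.70, 5.35 and 5.66 in wild type and 5.66 on both knockout arrays.

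Epithelial genes shared by airway and alveoli divided. Epcam, the epithelial adhesion molecule gene (probe set 17340272), read 4.0, 4.13 and 3.88 in wild type and 4.51 and 4.99 in knockout, a difference of 0.75 (SE 0.18) or 1.68-fold, with a limma adjusted p of 0.514. Nkx2-1, the lung lineage factor gene, read 3.54, 3.19 and 3.54 in wild type and 3.87 and 3.89 in knockout, a difference of 0.46 (SE 0.14). Krt19, a keratin gene, read 3.42, 3.36 and 3.46 in wild type and 3.81 and 3.53 in knockout. Without replicate 2 the differences were 0.50 for Epcam, 0.45 for Nkx2-1 and 0.40 for Krt19. These 3 of the 6 shared markers were higher without overlap, where 11.0% of all genes measured were. Krt19 was not separated after quantile normalization or median centring. Nkx2-1, with a wild-type mean of 3.42, passed the filter on dim genes through its knockout values, at a mean of 3.60 over all arrays. Krt19 was left out at 3.52.

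Cdh1, the gene of E-cadherin, read 5.41, 4.90 and 4.90 in wild type and 4.90 and 4.73 in knockout, a difference of -0.26 (SE 0.20). Krt8, a keratin gene, read 5.23, 5.20 and 5.23 in wild type and 5.25 and 5.23 in knockout, and its difference of 0.02 turned to -0.03 after median centring. Krt18, its keratin partner, differed by -0.05 at its brighter probe set and by 0.08 as the mean of its probe sets. Both keratins have numerous processed pseudogenes, so their probe sets may also detect those copies. Among 26 further alveolar and shared epithelial genes, all measured, 6 (23.1%) were higher in both knockout arrays and 0 lower, against 11.0% and 5.63% of all genes, with a median of 0.10. Cldn3, an epithelial claudin gene, read 4.98 and 5.24 against 4.57 to 4.80, and Akap5, an anchoring protein gene, 5.13 and 5.15 against 4.71 to 4.85.

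The stromal list mean was 3.91 on knockout replicate 1 and 4.05 on replicate 2, against 3.80 to 3.92 on the wild-type arrays. Replicate 1 lay above every wild-type array for 2 of the 7 markers and replicate 2 for 4, against 28.4% and 31.0% of all genes. Col1a2, a type I collagen chain, read 4.23 on all 3 wild-type arrays and 4.40 and 4.78 in knockout, a difference of 0.36 (SE 0.13). Without knockout replicate 2 the difference was 0.17, with a limma adjusted p of 0.0703. Its dimmer probe set read 3.10 to 3.65 in wild type and 2.85 and 3.10 in knockout, and the mean of both differed by 0.03. Without knockout replicate 1, Col1a2 was the only marker called, with a limma adjusted p of 0.0183 and an SE of 0.02 that rests on the equal wild-type values. In that fit 1072 genes were called, 6.44% of those tested, and its lone knockout array is the one with the high Xist signal.

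Col1a1, the other type I chain, read 5.26, 5.27 and 5.27 in wild type and 5.27 and 5.32 in knockout, and its difference of 0.03 turned to -0.02 after median centring. Col3a1, of type III collagen, differed by -0.17, with 4.36 on both knockout arrays and on the lowest of wild type. Pdgfrb, a growth factor receptor gene of pericytes and fibroblasts, read 4.55, 4.55 and 4.35 in wild type and 4.69 and 4.55 in knockout, a difference of 0.14. Pdgfra, a fibroblast receptor gene, read 3.40, 3.40 and 3.04 in wild type and 3.40 and 3.72 in knockout, and was separated only after quantile normalization among the scalings tried. The proteoglycan genes Dcn and Lum lay below the lower quartile on all 5 arrays, at 2.65 to 2.80 and 2.57 to 2.84. The stromal median difference was 0.13. Of 29 further stromal and mural genes measured among 30 listed, 2 (6.90%) were higher in both knockout arrays, below the 11.0% of all genes, and 0 lower, with a median of 0.08. Cox4i2, a respiratory subunit gene of pericytes, read 4.73 and 4.43 against 3.99 to 4.25.

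Genes of tissues other than lung gave a reference for dim probe sets. Of 21 measured among 24 listed from liver, muscle, retina and pancreas, 5 were higher in both knockout arrays and 0 lower, 23.8%, beside 20.8% and 23.1% for the further epithelial lists, 20.0% for the further endothelial and 6.90% for the further stromal list. After median centring the counts were 1 of 21 for the other tissues, 5 of 24 for further airway, 4 of 26 for further alveolar and shared, 3 of 25 for further endothelial and 1 of 29 for further stromal genes. The median was 0.05. Markers of other leukocytes, 59 of 69 measured, had 6 higher and 1 lower, 10.2% and near the 11.0% of all genes, with a median of 0.10. A gap of at least 1 log2 unit occurred for 1 of the 59 on each knockout array, Ngp on replicate 1 and Gzma on replicate 2. Gzma read 6.56 on replicate 2, against 3.27 to 4.01 in wild type and 3.84 on replicate 1. Shares higher without overlap were 33.3% for the epithelial, 40.0% for the endothelial and 14.3% for the stromal markers. No test of these shares was made, since the markers were chosen with earlier results known.

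**Figure D4:**
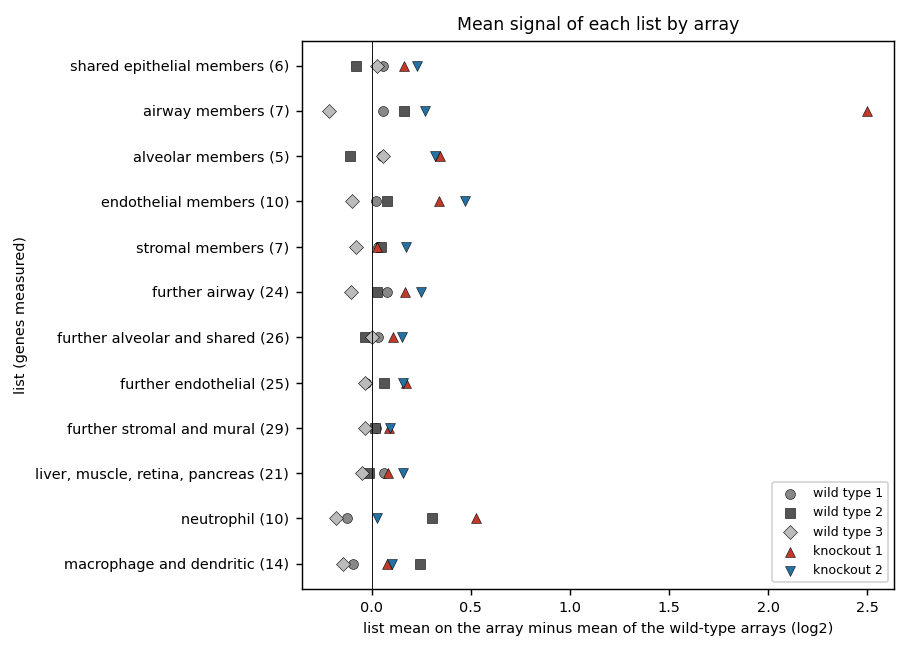
Mean log2 signal of each list on each array minus the mean of the 3 wild-type arrays (horizontal), with the number of genes measured in brackets. The airway markers of knockout replicate 1 lie far outside the range of every other list shown, followed by the neutrophil markers of that array.

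Taking each knockout array by itself, replicate 1 lay above every wild-type array for 18 of the 35 markers and replicate 2 for 19, against 28.4% and 31.0% of all genes measured. Gaps of at least 1 log2 unit on replicate 2 occurred for 2 markers, Cldn5 and Cdh5, both endothelial. On replicate 1 they occurred for 5, all of the airway. Of the 104 further genes of the same tissues, 1 had such a gap on replicate 1, Reg3g. On replicate 2 it was 2, Cyp4b1 and Emp2, both from the epithelial lists. Emp2 read 6.56 on knockout replicate 2, against 3.75 to 4.73 in wild type and 4.06 on replicate 1. Replicate 1 read above replicate 2 for 15 markers and below it for 18.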

How the data were processed

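Total RNA was extracted with Trizol and labelled with biotin, per the labels' protocols. Values were deposited as log2 signals per probe set. Per the submitters' processing notes, RMA and Affymetrix Expression Console were used, with no version or setting stated. RMA usually equalises the arrays, which hides a shift of all transcripts. Of 41345 probe sets, 23521 had 1 gene symbol, 1814 several and 16010 none. Symbols were updated by gene identifier through the RefSeq table of GRCm38.p6, which held 23328 of them. Each gene was read at its brightest probe set. Of 22180 genes, 16635 were tested with limma 3.58.1 in R 4.3.3 (lmFit, eBayes, Benjamini-Hochberg adjustment over all genes tested, threshold 0.05, no block). The fit was tested on simulated data that gave both groups the wild-type spread. That check does not cover unequal spreads or the equal values seen here. With 3 arrays against 2, exact permutation allows no p below 0.1, and such tests were not run.

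Members and lists were chosen with earlier results of these data known. Values on every array were printed for markers without overlap, past the threshold, or among the 2 of their class with the widest range or highest mean. From other lists, up to 3 genes with an unadjusted p below 0.05 and no overlap were named. Scgb3a2, Cbr2, Cyp2f2, Krt18, Foxj1, Emcn, Reg3g, Cyp4b1, Calcrl, Emp2, Gzma, Ngp, Retnlg, Mmp8, Il7r, Gata3, Xist, Uty, Kdm5d and Eif2s3y were described further after their values were seen, as were the promoters and motifs. Icos, Nmur1 and Il17rb, named by that rule among ILC2 identity genes, differed by 1.27, -0.56 and -0.23. Alternatives covered the filter, probe sets, scaling, weights on the arrays, the variance model, a replicate block and leaving out each array.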

Additional observations from a re-analysis of the deposited data

How the results depend on the processing

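Over the 8 settings that kept all arrays, 31 of the 35 markers had 1 sign throughout, and 22 did when arrays were also left out. The settings of the filter and of the variance model cannot change a difference, so their signs were fixed in advance. Averaging probe sets can change only Cdh1, Krt18, Cyp2f2 and Col1a2. No marker and no gene passed the threshold in limma with all arrays, whatever the setting. In what follows, "higher" and "lower" count genes whose arrays did not overlap, and medians are of log2 differences. With the mean of the probe sets of each gene, 0 stromal markers were higher (1 as reported), beside 11.4% of all genes. The stromal median was then 0.0279 and the ILC2 identity median -0.0355, and Krt18 turned to 0.0788. After median centring, 1 epithelial and 3 stromal markers were lower, each 0 as reported. Of all genes, 8.07% were then higher and 24.1% lower. The further lists then had 3 endothelial (5 as reported) and 1 stromal or mural gene higher, with medians of 0.0846 and 0.0272, and the further alveolar and shared median was 0.0474. For genes of other tissues and ILC2 identity genes 1 each was higher, and Krt8 and Col1a1 turned to -0.0316 and -0.0247. After quantile normalization, 1 epithelial and 2 stromal markers were lower, where 15.3% of all genes were. Higher were 2 stromal markers, 3 further alveolar and shared genes and 3 genes of other tissues, where 11.9% of all genes were. The further alveolar and stromal medians were 0.0444 and 0.0543. The median of all genes tested was 0.0385 as reported, 0.0106 after quantile normalization and -0.0141 after centring. With the replicate block, Krt18 turned to 0.0808 and Tie1 to -0.036, and no call changed. The replicate numbers share only 2 pairs, whose deviations over 16635 genes correlated at -0.0457 and 0.1426, so the numbers were not shown to pair the arrays.

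When each array was left out in turn, the genes called ranged from 0 to 1072 (1072 without knockout replicate 1, 389 without replicate 2) and the markers called from 0 to 1. Markers higher ranged from 6 to 11 for epithelium and 1 to 4 for stroma. Markers lower ranged from 0 to 2 for epithelium, 1 to 2 for endothelium and 0 to 1 for stroma. The endothelial median ranged from 0.1031 to 0.2265 and the stromal one from 0.0025 to 0.1329. In the further lists, genes higher ranged from 6 to 12 (airway), 6 to 13 (alveolar and shared), 5 to 12 (endothelial) and 2 to 10 (stromal and mural), and the last 3 lists had medians of 0.0606 to 0.1124, 0.0482 to 0.1536 and 0.0046 to 0.0794. For other leukocytes 6 to 23 were higher, for other tissues 5 to 9 and for ILC2 identity genes 3 to 6, whose median ranged from -0.1857 to -0.0277. A single knockout array exceeds all of wild type more often than 2 do. Replicate 1 did so for 28.4% of all genes measured, replicate 2 for 31.0% and both for 11.0%. Signs turned for 9 markers. Of those tested, differences ranged from -0.2403 to 0.1392 for Krt18 (0.0808 without wild type replicate 3), from -0.0483 to 0.2331 for Tie1 (-0.036 without wild type replicate 3), from -0.0233 to 1.2532 for Scgb3a1, from -0.2785 to 0.4588 for Pecam1 (-0.0048 without wild type replicate 2) and from -0.0222 to 0.1508 for Ager. Of those too dim to test, Scgb3a2 (1.9763 as reported) turned to -0.0929 without knockout replicate 1, Foxj1 to -0.0203 without knockout replicate 2, Tek to 0.0021 without wild type replicate 1 and Emcn to 0.0344 without wild type replicate 2. Dcn and Lum came to 0 without knockout replicate 1 and 2, respectively. Of the tested, Krt18, Tie1 and Scgb3a1 turned without knockout replicate 1, Pecam1 without knockout replicate 2 and Ager without wild type replicate 2. The cause of these shifts was not tested. The number of arrays, and probe sets near the lowest signals, limit all of these values.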
